A study of Mus musculus with 9 samples.

Results

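The genes described here encode the membrane, the proton pump and many of the digestive enzymes of the lysosome, measured in microglia, the macrophages that reside in brain tissue. They were chosen by name. A probe set counted when its single gene symbol was on a list of 31 lysosomal genes or began with Atp6v, and the brightest probe set stood for a gene that had several. The rule found 52 of 22180 measured genes, namely 30 of the 31 listed symbols and 22 Atp6v symbols. The listed gene Glb1 has a probe set that carries several symbols, so it has no value here. Cathepsins and the sulfatases of glycosaminoglycans were not part of the choice. Not all 52 act inside the lysosome. Cln8 encodes a membrane protein of the endoplasmic reticulum, Tfeb a transcription factor, and Atp6v1fnb a gene named after its neighbour Atp6v1f that is no pump subunit.

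Microglia were sorted by FACS from brains of female C57Bl/6 mice of 24 to 28 weeks, and each of 3 genotypes had 3 arrays. The wild type group has no further allele in the labels. The FAD group carries the 5X familial Alzheimer's disease background, in which amyloid plaques form, together with floxed alleles of the histone deacetylases Hdac1 and Hdac2 (Hdac1/2fl/fl). The FAD DKO group carries the same and Cx3cr1CreERT2, a tamoxifen-inducible Cre recombinase at the fractalkine receptor locus, which other macrophages of the brain also use. All mice, controls included, were given 8 mg tamoxifen at 6 weeks of age. FAD differs from wild type in the floxed alleles as well as the disease background, and FAD DKO differs from FAD in the Cre allele as well as the deletion, so these cannot be told apart. Whether the 3 arrays of a genotype stand for separate animals is not in the labels; the p-values therefore cover only the spread between these samples, which may be technical.

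Lysosomes are acidic organelles in which hydrolases break down proteins, lipids, sugars and nucleic acids taken up by phagocytosis or delivered by autophagy. The V-type proton pump acidifies them. Its V1 sector on the cytoplasmic side splits ATP and its V0 sector in the membrane carries the protons. Microglia engulf cell debris, synapses and amyloid, and digest them there, and inherited loss of single hydrolases or transporters causes lysosomal storage diseases that often affect the brain.

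Array medians lay between 5.346 and 5.398 on the deposited log2 scale, and the number of arrays limits the precision. Hdac1 ranged from 8.07 to 8.65 in wild type, 8.03 to 8.19 in FAD and 7.41 to 7.64 in FAD DKO, and Hdac2 from 8.22 to 8.39, 8.36 to 8.56 and 7.61 to 7.90. All FAD DKO arrays were thus the lowest for both genes, although the probes may lie outside the deleted parts. All 15 measured microglia markers had a mean above the median of all probe sets (5.354), and their mean level was 11.02 to 11.06 in wild type, 10.90 to 10.98 in FAD and 10.91 to 10.96 in FAD DKO. Markers of other cells lay below that median for 7 of 8 lymphocyte, 6 of 8 neuron, 6 of 8 endothelial and mural, 5 of 8 astrocyte, 4 of 7 oligodendrocyte and 4 of 9 border macrophage genes. The remaining genes of these lists lay at or above it, so RNA of these cells, border macrophages among them, is not excluded. Neutrophil and monocyte markers were brighter, with 2 of 14 below that median and a mean level of 6.69 to 7.11 in wild type, 7.14 to 7.24 in FAD and 6.24 to 7.74 in FAD DKO. In RNA from many sorted cells, fewer cells of a type and less RNA per cell cannot be told apart.

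Across the 52 genes, most values differed little between the genotypes. Fuca1, a glycosidase that removes fucose from glycoproteins and glycolipids, was lowest in wild type and highest in FAD DKO, 1.56-fold apart, and Cln8 was 0.591 times its FAD level in FAD DKO. Among other glycosidases with their highest mean in FAD, Galc and Gla lay 0.45 and 0.34 above wild type on the log2 scale. Neu1, Manba and Naglu lay at most 0.09 above it. The major membrane glycoproteins Lamp1 and Lamp2 also had their highest mean in FAD, but their group means lay at most 0.08 apart. In limma 0 of the 52 passed an adjusted p under 0.05 in any of the 3 comparisons. Of all genes, 0.0406% (9) passed between FAD and wild type, 0.0225% (5) between FAD DKO and FAD, and 0.14% (31) between FAD DKO and wild type.

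Counts at an unadjusted p under 0.05 were read against the share of all genes in the same direction. Between FAD and wild type, 7 members (13.5%) were higher in FAD, where 4.41% of all genes were, and 4 members (7.69%) were lower, where 4.02% were. Between FAD DKO and FAD, 5 (9.62%) were higher, against 3.69%, and 1 (1.92%) was lower, against 4.41%. Between FAD DKO and wild type, 6 (11.5%) were higher, against 3.95%, and 1 (1.92%) was lower, against 4.19%. Single arrays changed these counts. The 11 members between FAD and wild type became 7 without FAD replicate 1, FAD replicate 2 or wild type replicate 3. The 6 between FAD DKO and FAD became 3 without FAD DKO replicate 2, and the 7 between FAD DKO and wild type became 4 without FAD DKO replicate 3 and 11 without wild type replicate 1.

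Groups whose 3 arrays did not overlap were counted in the same way. In FAD 10 members (19.2%) lay wholly above wild type, against 6.37% of all genes, and 7 (13.5%) wholly below, against 5.46%. In FAD DKO 8 (15.4%) lay wholly above FAD, against 5.38%, and 3 (5.77%) wholly below, against 6.5%. FAD DKO lay wholly above wild type for 11 (21.2%), against 5.77%, and wholly below for 5 (9.62%), against 6.15%. Members varied less within groups than genes at large. Taking only genes at least as bright as the median of all probe sets, the median within-group SD was 0.0876 over 46 members and 0.106 over 11532 genes. A difference above 0 was found for 34 members (65.4%) between FAD and wild type, against 47.9% of all genes, for 29 (55.8%) between FAD DKO and FAD, against 53.2%, and for 37 (71.2%) between FAD DKO and wild type, against 51.3%. The median difference of the members was 0.06, 0.03 and 0.06 on the log2 scale in that order, beside -0.01, 0.01 and 0.00 over all genes. Sets of 3 differences keep this order, with FAD set against wild type first, then FAD DKO against FAD, and last FAD DKO against wild type. The 3 comparisons share arrays, so their counts are not independent of each other.

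**Figure D1:**
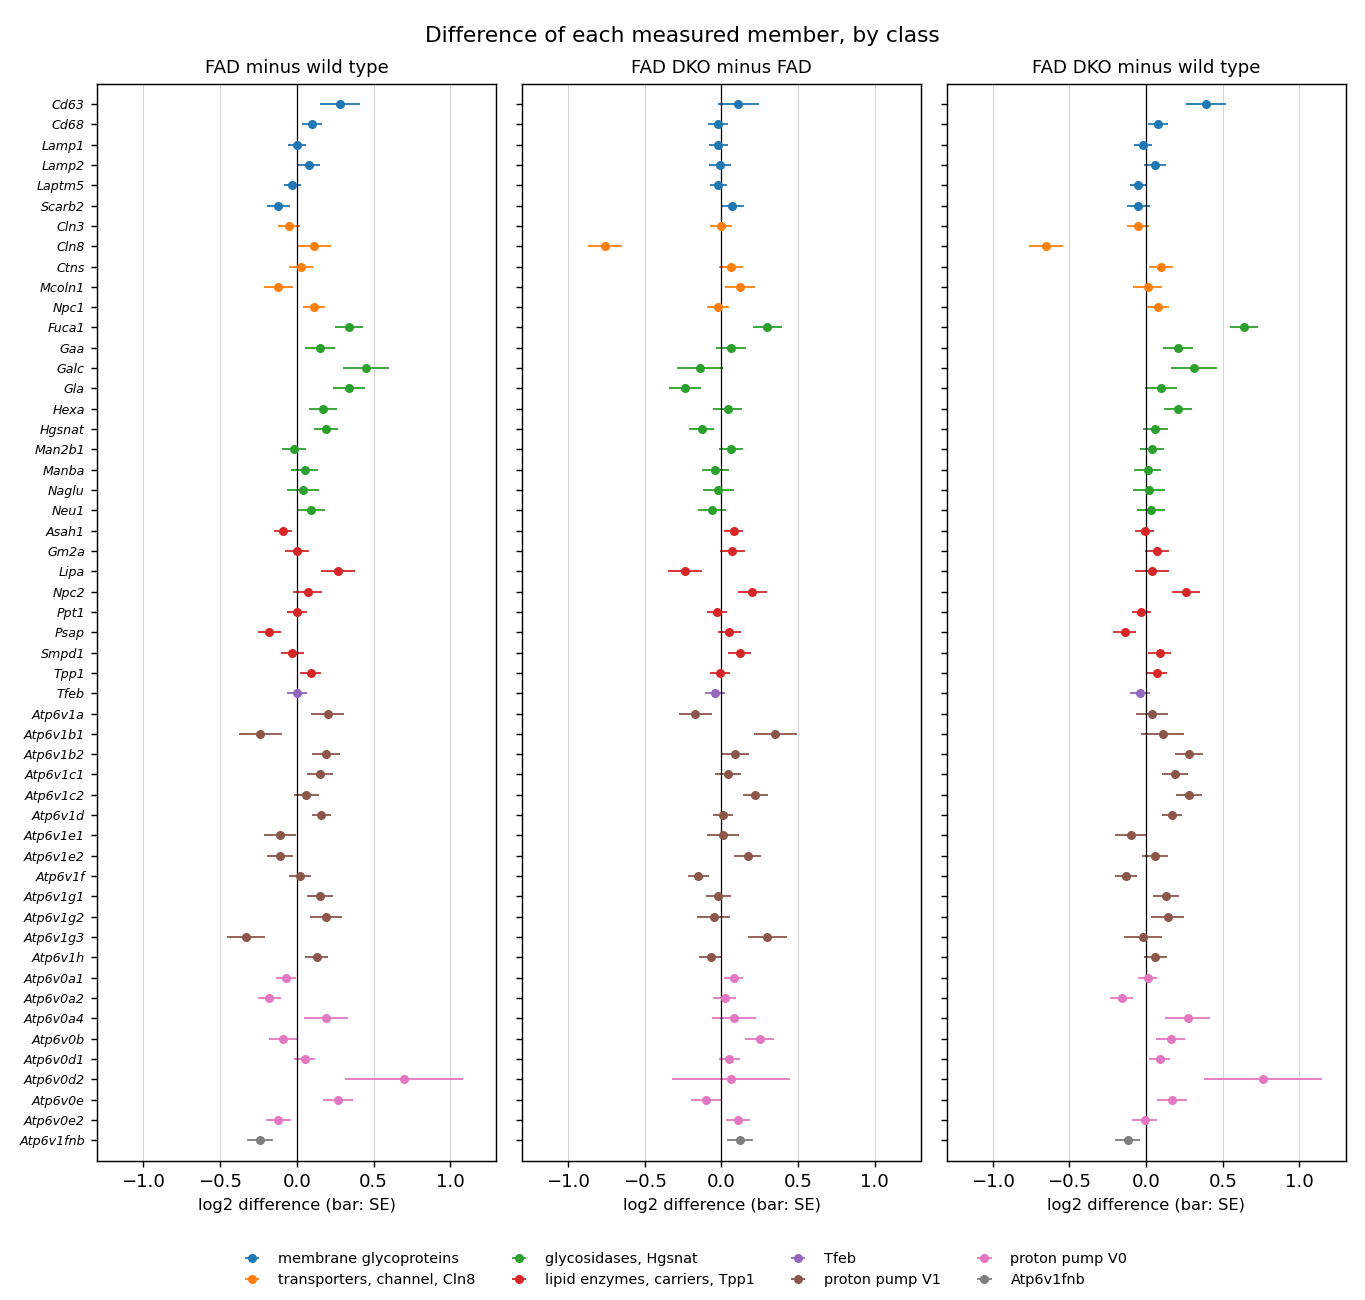
Difference of each of the 52 members on the log2 scale (x axis, points, with the SE as a bar) in the 3 comparisons, by class. Most points lie within 0.3 of 0. Cln8 stands alone on the low side at -0.76 and -0.65 in the panels of FAD DKO. The dim Atp6v0d2 is highest against wild type, at 0.70 in FAD and 0.76 in FAD DKO, with the widest SE (0.384). Fuca1 is at 0.34, 0.30 and 0.64.

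Many lysosomal genes carry in their promoters the palindrome CACGTG, the core of the site bound by TFEB and related factors and known as CLEAR, and the members' promoters were read for it. RefSeq sequence of build GRCm38.p6, from 250 bases before to 50 after each start, was matched for 42 of the 52 members; Asah1, Atp6v0a2, Atp6v0d2, Atp6v1b2, Atp6v1c1, Atp6v1g1, Atp6v1h, Cln8, Hgsnat and Npc1 had no entry. The letters CACGTG, which read the same on both strands, occurred in 10 of 42 (23.8%) and in 8.09% of all 27025 genes with an entry. These are more genes than were measured, and a gene with several entries counted once, if any held the letters. The same letters with GT before or AC after them, a subset of the first, occurred in 7 (16.7%) and in 2.55% of all. More than 1 copy was found in 5 members (11.9%) and in 0.681% of all. Lamp1 at chr8:13158911-13159160 (plus strand), Mcoln1 at chr8:3500269-3500518 (plus strand) and Gla at chrX:134601006-134601255 (minus strand) are printed since they hold 4, 2 and 2 copies, and Fuca1 at chr4:135920476-135920725 (plus strand) since it holds 0 and had the largest difference of any member with an entry. Each line gives the 250 bases before the start, 5′ to 3′ on the gene's strand, with CACGTG in capitals.
Lamp1: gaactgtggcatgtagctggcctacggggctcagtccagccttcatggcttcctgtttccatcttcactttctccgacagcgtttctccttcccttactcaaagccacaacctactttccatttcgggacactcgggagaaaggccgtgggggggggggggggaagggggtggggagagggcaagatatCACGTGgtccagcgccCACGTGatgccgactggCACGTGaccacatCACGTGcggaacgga
Mcoln1: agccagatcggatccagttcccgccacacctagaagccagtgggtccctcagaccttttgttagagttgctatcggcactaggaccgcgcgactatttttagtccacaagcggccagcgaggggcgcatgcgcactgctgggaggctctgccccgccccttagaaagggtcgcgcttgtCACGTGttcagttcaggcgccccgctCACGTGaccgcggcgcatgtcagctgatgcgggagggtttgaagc
Gla: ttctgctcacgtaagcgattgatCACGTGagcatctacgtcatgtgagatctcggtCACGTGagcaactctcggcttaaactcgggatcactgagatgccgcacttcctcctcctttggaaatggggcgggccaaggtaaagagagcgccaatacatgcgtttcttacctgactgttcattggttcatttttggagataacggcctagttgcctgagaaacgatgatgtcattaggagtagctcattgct
Fuca1: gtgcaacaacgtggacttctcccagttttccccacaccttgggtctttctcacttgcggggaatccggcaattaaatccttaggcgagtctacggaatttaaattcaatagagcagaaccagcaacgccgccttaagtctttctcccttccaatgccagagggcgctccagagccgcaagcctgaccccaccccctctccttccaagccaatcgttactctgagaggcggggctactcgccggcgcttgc

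Differences of holders and other members were set side by side, with no test. The 10 holders were Atp6v0b, Atp6v0d1, Atp6v0e, Atp6v1a, Cln3, Gaa, Gla, Lamp1, Mcoln1 and Naglu. Their median difference was 0.04 between FAD and wild type, -0.01 between FAD DKO and FAD, and 0.06 between FAD DKO and wild type. For the 32 members without it the medians were 0.02, 0.06 and 0.06. The letters are a description of these windows and show no binding. Tfeb itself, the factor that switches on lysosome and autophagy genes, had values of 6.11, 6.11 and 6.09 on the wild type arrays, 6.08, 6.11 and 6.11 on those of FAD, and 5.96, 6.11 and 6.11 on those of FAD DKO. All but 1 array lay between 6.08 and 6.11, and FAD DKO replicate 1 was lower, so that the differences were 0.00, -0.04 and -0.04 (SE 0.0647).

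The glycosidases and enzymes of heparan sulfate breakdown, which trim sugars from glycoproteins, glycolipids and glycosaminoglycans, were counted by direction. Of 10 measured, 9 (90%) lay above 0 between FAD and wild type, where 47.9% of all genes did, with a median of 0.16. It was 4 (40%) between FAD DKO and FAD, against 53.2%, with a median of -0.03. It was 10 (100%) between FAD DKO and wild type, against 51.3%, with a median of 0.08. Of these, Manba, Naglu, Neu1 and Man2b1 lay only 0.01 to 0.04 above 0, and each fell below 0 when a certain single array was left out. An unadjusted p under 0.05 was reached, in the higher direction, by 4 between FAD and wild type, where 4.41% of all genes did so. It was reached by 1 between FAD DKO and FAD (3.69% of all genes) and by 1 between FAD DKO and wild type (3.95%), where a count of 1 among 10 genes is no result about the class. In the lower direction 0 reached it, and 0 passed over all genes.

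Fuca1, the alpha-L-fucosidase whose loss causes fucosidosis, read 8.96, 9.03 and 8.83 on the wild type arrays, 9.25, 9.44 and 9.14 on those of FAD, and 9.54, 9.55 and 9.65 on those of FAD DKO. The groups did not overlap, with wild type lowest, FAD between and FAD DKO highest. The means were 8.94 ± 0.103, 9.28 ± 0.151 and 9.58 ± 0.063 (log2, SD, n = 3). The difference was 0.34 between FAD and wild type (SE 0.0926, limma adjusted p = 0.419) and 0.30 between FAD DKO and FAD (SE 0.0926, limma adjusted p = 0.434). Between FAD DKO and wild type it was 0.64, a 1.56-fold higher level. Its adjusted p of 0.05004 in limma lay just above the threshold, and Fuca1 ranked 32 of 22180 where 31 genes passed. It passed in 4 of 13 alternative settings, with adjusted p from 0.0109 to 0.171 over all 13. Leaving out single arrays gave 0.58 to 0.68, and Fuca1 passed in 0 of those 6 fits.

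Galc, the galactosylceramidase that digests myelin lipids and is lost in Krabbe disease, read 7.36, 7.15 and 7.11 on the wild type arrays, 7.52, 8.00 and 7.45 on those of FAD, and 7.39, 7.50 and 7.67 on those of FAD DKO. Every FAD and FAD DKO array lay above every wild type array, and FAD replicate 2 was far above the rest. Galc differed by 0.45 between FAD and wild type (SE 0.149, limma adjusted p = 0.502; 0.28 without FAD replicate 2). It differed by -0.14 between FAD DKO and FAD, which became 0.03 without FAD replicate 2, and by 0.31 between FAD DKO and wild type.

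Gla encodes alpha-galactosidase A, lost in Fabry disease, and had its highest mean in FAD. Its values were 6.58, 6.48 and 6.34 on the wild type arrays, 6.96, 6.87 and 6.59 on those of FAD, and 6.54, 6.59 and 6.59 on those of FAD DKO. FAD lay above all wild type arrays, while FAD replicate 3 was level with the FAD DKO arrays. The difference was 0.34 between FAD and wild type (SE 0.104, limma adjusted p = 0.474), -0.24 between FAD DKO and FAD (adjusted p = 0.615) and 0.10 between FAD DKO and wild type.

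Hgsnat, the acetyltransferase that prepares heparan sulfate for digestion inside the lysosome, gave 7.64, 7.61 and 7.81 on the wild type arrays, 7.87, 7.81 and 7.95 on those of FAD, and 7.66, 7.82 and 7.78 on those of FAD DKO. FAD did not overlap wild type for Hgsnat, with 7.81 as the highest wild type value and only just more in the lowest FAD array. The difference was 0.19 between FAD and wild type (SE 0.0801), -0.13 between FAD DKO and FAD and 0.06 between FAD DKO and wild type. Hexa, the alpha subunit of beta-hexosaminidase, which digests gangliosides and is lost in Tay-Sachs disease, differed by 0.17, 0.04 and 0.21, and its FAD DKO arrays lay just above all wild type arrays. Gaa, which digests glycogen, differed by 0.15, 0.06 and 0.21, its lowest array being wild type replicate 3 (7.53). The sialidase Neu1, the mannosidases Man2b1 and Manba and the heparan sulfate enzyme Naglu stayed between -0.06 and 0.09 in all comparisons.

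**Figure D2:**
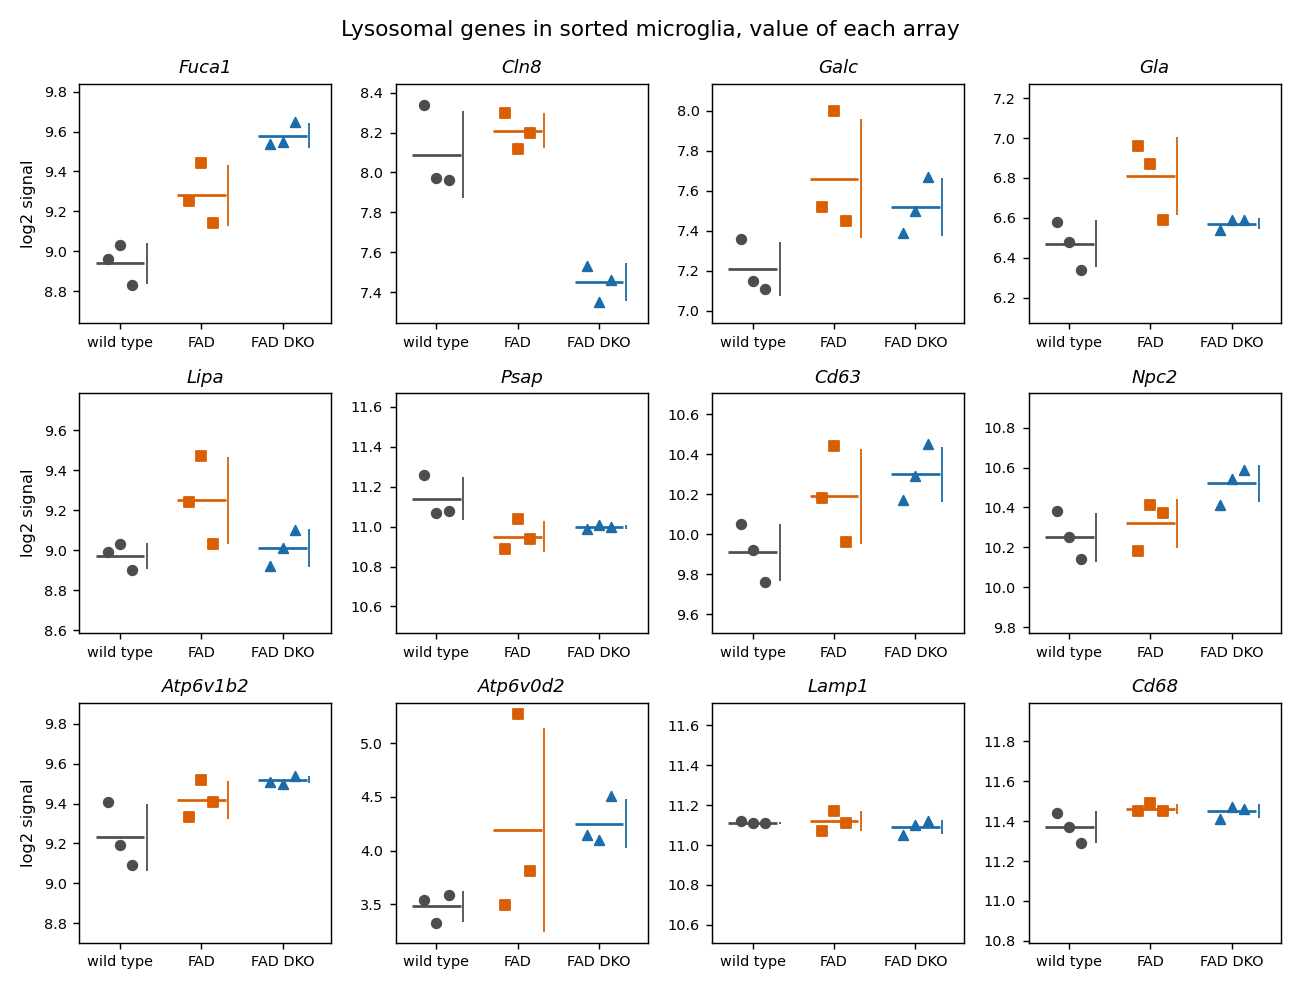
Log2 signal (y axis, own range per gene) of 12 members in each array, with the group mean as a horizontal line and the SD as a vertical bar (n = 3). The 3 groups of Fuca1 do not overlap, Cln8 is lowest in all 3 FAD DKO arrays, FAD replicate 2 is the highest FAD array for Galc, Lipa and Atp6v0d2, and Lamp1 is level.

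Among the membrane transporters and related proteins, Cln8 was the exception. CLN8 helps newly made lysosomal enzymes leave the endoplasmic reticulum, and its loss causes a form of Batten disease. Its values were 8.34, 7.97 and 7.96 on the wild type arrays, 8.30, 8.12 and 8.20 on those of FAD, and 7.53, 7.35 and 7.46 on those of FAD DKO. All 3 FAD DKO arrays lay below every other array, and wild type and FAD overlapped. The means were 8.09 ± 0.216, 8.21 ± 0.0871 and 7.45 ± 0.0952 (log2, SD, n = 3). Cln8 differed by -0.76 between FAD DKO and FAD (SE 0.111, limma adjusted p = 0.159, rank 11 of 22180) and by -0.65 between FAD DKO and wild type (limma adjusted p = 0.0764, rank 76), or 0.591 and 0.639 times the level. It passed in 2 of 13 alternative settings of each comparison, with adjusted p from 0.0374 to 0.366 and from 0.0246 to 0.224. Leaving out single arrays gave -0.80 to -0.71 and -0.71 to -0.52.

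A dimmer probe set for Cln8 gave the same order for FAD DKO. It read 7.50, 7.40 and 7.27 on the wild type arrays, 7.16, 7.09 and 7.35 on those of FAD, and 6.86, 6.95 and 6.68 on those of FAD DKO. Its differences were -0.37 between FAD DKO and FAD and -0.56 between FAD DKO and wild type, and again no FAD DKO array reached another group. The probe sets disagreed between FAD and wild type, at 0.11 for the brighter and -0.19 for the dimmer. Neutrophil and monocyte markers varied most among the FAD DKO arrays, with list means of -0.82, 0.68 and 0.06 after each gene was centred on its mean over 9 arrays. Cln8 read 7.53, 7.35 and 7.46 in the same arrays, so that it was highest where these markers were lowest. The wild type array with the lowest marker mean (-0.37, replicate 1) also had the highest Cln8 value of its group (8.34). Across the groups, FAD DKO replicate 1 had the lowest marker mean of all arrays (-0.82) and a Cln8 value (7.53) below every FAD and wild type array. The part of these markers in the Cln8 differences was not tested.

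**Figure D3:**
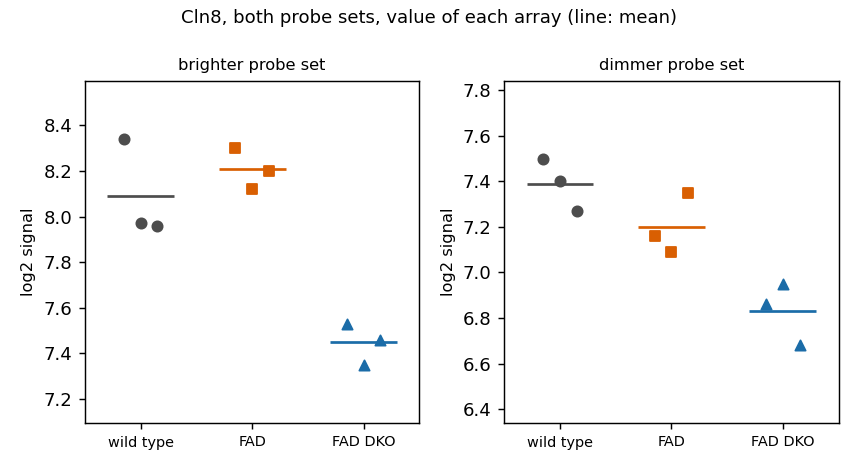
Log2 signal (y axis) of the brighter and the dimmer Cln8 probe set in each array, with the group mean as a line (3 arrays a group). FAD DKO lies below both other groups in both panels; FAD is above wild type in the left panel (8.21 and 8.09) and below it in the right (7.20 and 7.39).

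The other 4 genes of the class lay close to 0. Mcoln1, the calcium channel that signals from lysosomes to TFEB, read 8.70, 8.52 and 8.39 on the wild type arrays, 8.35, 8.35 and 8.56 on those of FAD, and 8.51, 8.52 and 8.60 on those of FAD DKO, with differences of -0.12, 0.12 and 0.01. The groups overlapped throughout. Ctns, the cystine exporter, differed by 0.03, 0.06 and 0.10. Cln3, another Batten disease protein, differed by -0.05, 0.00 and -0.05. Npc1, which hands cholesterol out of the lysosome, differed by 0.11, -0.02 and 0.08, and its groups overlapped too. A second Npc1 probe set, with group means of 5.28, 5.17 and 5.11 below the median of all probe sets, gave -0.11, -0.05 and -0.16.

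The 6 membrane glycoproteins, which line and protect the lysosomal membrane, had median differences of 0.04, -0.02 and 0.02. Lamp1 read 11.12, 11.11 and 11.11 on the wild type arrays, 11.07, 11.17 and 11.11 on those of FAD, and 11.05, 11.10 and 11.12 on those of FAD DKO. Its differences were 0.00, -0.02 and -0.02 with an SE of 0.0598. Lamp2, which also serves chaperone-mediated autophagy, gave 0.08, -0.01 and 0.06. Laptm5, a lysosomal protein of hematopoietic cells, had the least spread of all members, with a within-group SD of 0.0215. Scarb2, which carries glucocerebrosidase to the lysosome, gave -0.12, 0.07 and -0.05.

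Cd63, a tetraspanin of late endosomes and exosomes, varied most in this class. It read 10.05, 9.92 and 9.76 on the wild type arrays, 10.18, 10.44 and 9.96 on those of FAD, and 10.17, 10.29 and 10.45 on those of FAD DKO. Every FAD DKO array lay above every wild type array, and FAD spanned the space between them. Cd63 differed by 0.28 between FAD and wild type, 0.11 between FAD DKO and FAD and 0.39 between FAD DKO and wild type (SE 0.132, limma adjusted p = 0.45). Cd68, the macrophage sialomucin often stained as a sign of phagocytic activity, read 11.44, 11.37 and 11.29 on the wild type arrays, 11.45, 11.49 and 11.45 on those of FAD, and 11.41, 11.47 and 11.46 on those of FAD DKO. FAD lay just above all wild type arrays for Cd68, and the differences were 0.10, -0.02 and 0.08 (SE 0.0648).

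Lipid hydrolases, lipid carriers and the peptidase Tpp1 had no common direction, with 5 of 8 (62.5%) above 0 in each comparison, against 47.9%, 53.2% and 51.3% of all genes, and medians of 0.00, 0.06 and 0.05. Lipa, the acid lipase that frees cholesterol from its esters, read 8.99, 9.03 and 8.90 on the wild type arrays, 9.24, 9.47 and 9.03 on those of FAD, and 8.92, 9.01 and 9.10 on those of FAD DKO. FAD replicate 1 and FAD replicate 2 were the highest arrays, and FAD replicate 3 matched the highest wild type array. Lipa differed by 0.27 between FAD and wild type (SE 0.11, limma adjusted p = 0.573), -0.24 between FAD DKO and FAD and 0.04 between FAD DKO and wild type. Without FAD replicate 2 the first became 0.16 and the second -0.13.

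Psap, the precursor of the saposins that help enzymes reach their lipids, read 11.26, 11.07 and 11.08 on the wild type arrays, 10.89, 11.04 and 10.94 on those of FAD, and 10.99, 11.01 and 11 on those of FAD DKO. FAD and FAD DKO lay below all wild type arrays for Psap, with differences of -0.18 between FAD and wild type (SE 0.0751, limma adjusted p = 0.579) and -0.14 between FAD DKO and wild type. The first was -0.12 without wild type replicate 1, the highest array. Npc2, which binds cholesterol in the lumen and passes it to NPC1, read 10.38, 10.25 and 10.14 on the wild type arrays, 10.18, 10.41 and 10.37 on those of FAD, and 10.41, 10.54 and 10.59 on those of FAD DKO. Its FAD DKO arrays reached or passed the highest arrays of the other groups, and it differed by 0.07, 0.20 and 0.26 (SE 0.0937, limma adjusted p = 0.491 for FAD DKO against wild type). Acid ceramidase (Asah1), the activator Gm2a, the thioesterase Ppt1, acid sphingomyelinase (Smpd1) and Tpp1 stayed between -0.09 and 0.12 in all comparisons.

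The proton pump had 21 measured subunits, 13 of the V1 and 8 of the V0 sector. In V1, 9 of 13 (69.2%) lay above 0 between FAD and wild type, 8 (61.5%) between FAD DKO and FAD and 10 (76.9%) between FAD DKO and wild type, with medians of 0.13, 0.01 and 0.11. In V0, 4 of 8 (50%), 7 (87.5%) and 6 (75%) lay above 0, with medians of -0.01, 0.07 and 0.13. The shares of all genes above 0 were 47.9%, 53.2% and 51.3% in the same order, so the V1 share between FAD DKO and FAD and the V0 share between FAD and wild type were near them. The 6 members with a mean below the median of all probe sets were Atp6v0a4, Atp6v0d2, Atp6v1b1, Atp6v1c2, Atp6v1e2 and Atp6v1g3, all isoforms best known from kidney, osteoclasts, testis or other special tissues. For these, the size of a difference is uncertain.

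Among the ATP-splitting subunits, Atp6v1b2, the B subunit isoform of brain and most tissues, read 9.41, 9.19 and 9.09 on the wild type arrays, 9.33, 9.52 and 9.41 on those of FAD, and 9.51, 9.50 and 9.54 on those of FAD DKO. The FAD DKO arrays lay above all wild type arrays. It differed by 0.19, 0.09 and 0.28 (SE 0.0922, limma adjusted p = 0.427 for FAD DKO against wild type), and a second probe set gave 0.25, -0.03 and 0.22. Atp6v1a, the catalytic A subunit, read 7.58, 7.53 and 7.40 on the wild type arrays, 7.58, 7.95 and 7.58 on those of FAD, and 7.55, 7.50 and 7.57 on those of FAD DKO. FAD replicate 2 was far the highest there, and the difference of 0.20 between FAD and wild type became 0.08 without it, that of -0.17 between FAD DKO and FAD -0.04.

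Atp6v1d, part of the rotor, had little spread and read 8.00, 7.96 and 7.90 on the wild type arrays, 8.12, 8.06 and 8.15 on those of FAD, and 8.06, 8.18 and 8.13 on those of FAD DKO. FAD and FAD DKO both lay above wild type, by 0.16 (limma adjusted p = 0.579) and 0.17 (limma adjusted p = 0.531), with an SE of 0.0645. Atp6v1f read 6.56, 6.65 and 6.57 on the wild type arrays, 6.59, 6.57 and 6.69 on those of FAD, and 6.54, 6.39 and 6.46 on those of FAD DKO and lay lowest in FAD DKO, with differences of -0.15 from FAD and -0.13 from wild type. Its neighbour Atp6v1fnb read 5.78, 5.61 and 5.71 on the wild type arrays, 5.37, 5.58 and 5.42 on those of FAD, and 5.66, 5.50 and 5.58 on those of FAD DKO. FAD was below all wild type arrays there (-0.24, limma adjusted p = 0.508).

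In the membrane sector, Atp6v0e, a small subunit, read 8.95, 9.10 and 9.0 on the wild type arrays, 9.26, 9.45 and 9.14 on those of FAD, and 9.17, 9.07 and 9.32 on those of FAD DKO. All FAD arrays lay above wild type, by 0.27 (SE 0.0977, limma adjusted p = 0.524). Atp6v0b, a proteolipid of the proton-carrying ring, read 10.30, 10.08 and 9.95 on the wild type arrays, 9.92, 10.04 and 10.11 on those of FAD, and 10.27, 10.26 and 10.29 on those of FAD DKO. Its FAD DKO arrays stood close together and above FAD, by 0.25 (SE 0.0947, limma adjusted p = 0.546), yet overlapped wild type. Atp6v0a2, the a subunit isoform of endosomes and Golgi, read 9.0, 8.89 and 8.78 on the wild type arrays, 8.71, 8.64 and 8.77 on those of FAD, and 8.76, 8.68 and 8.73 on those of FAD DKO. Both disease groups lay below all wild type arrays, with differences of -0.18 in FAD (limma adjusted p = 0.584) and -0.16 in FAD DKO.

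Atp6v0d2, an isoform abundant in osteoclasts and some macrophages, had the widest spread of all members. It read 3.54, 3.32 and 3.59 on the wild type arrays, 3.49, 5.27 and 3.81 on those of FAD, and 4.14, 4.10 and 4.51 on those of FAD DKO. FAD replicate 2 was near the median of all probe sets, and every other array was well below it. The difference was 0.70 between FAD and wild type (SE 0.384, limma adjusted p = 0.672) and 0.16 without FAD replicate 2; between FAD DKO and wild type it was 0.76 with no overlap (limma adjusted p = 0.662). Of the other dim isoforms, Atp6v1c2 gave 0.28 between FAD DKO and wild type and 0.22 between FAD DKO and FAD. Atp6v1b1 and Atp6v1g3 gave 0.35 and 0.30 between FAD DKO and FAD, and -0.24 and -0.33 between FAD and wild type.

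Levels were also averaged within each array. The mean of all 52 members, each centred on its mean over 9 arrays, was 0.01, -0.06 and -0.10 for wild type, then -0.03, 0.10 and -0.03 for FAD, then 0.01, 0.03 and 0.07 for FAD DKO. FAD replicate 2 was thus the highest array and wild type replicate 3 the lowest. The 10 glycosidases and heparan sulfate enzymes gave -0.04, -0.09 and -0.22, then 0.03, 0.17 and -0.01, then 0.00, 0.04 and 0.11, with the same arrays at the ends. Markers of plaque-associated microglia, read over 17 genes that include no member, gave -0.73, -0.86 and -0.98 for wild type, then 0.01, 0.70 and 0.20 for FAD, then 0.49, 0.46 and 0.69 for FAD DKO. FAD replicate 2 was the highest array and wild type replicate 3 the lowest on this list also, and the part of these markers in the members' differences was not tested. Neutrophil and monocyte markers lay above 0 for 14 of 14 genes between FAD and wild type, where 47.9% of all genes did. Their median difference was 0.24 with a median SE of 0.398, and 1 of them reached an unadjusted p under 0.05. Their list mean was lowest in wild type replicate 1 (-0.37), with 0.05 and 0.01 in the other wild type arrays. Microglia markers lay above 0 for 1 of 15 in that comparison, with a median of -0.08. The part of either list was not tested.

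**Figure D4:**
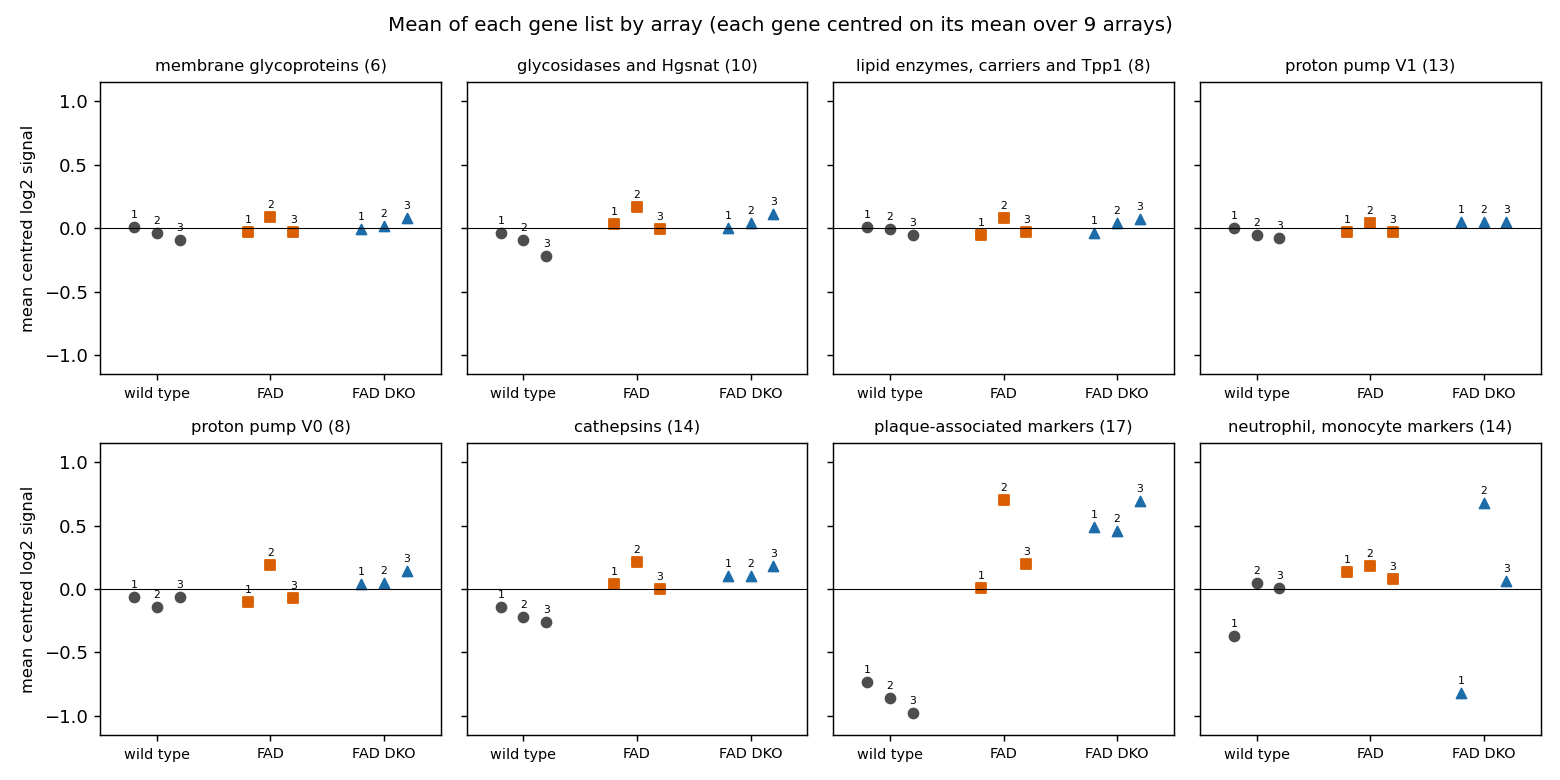
Mean of each gene list per array (y axis, log2 signal with each gene centred on its mean over 9 arrays; digits give the replicate, numbers in brackets the genes). The member classes stay within 0.25 of 0, whereas plaque-associated markers range from -0.98 to 0.70 and neutrophil and monocyte markers from -0.82 to 0.68.

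Other lysosomal genes were read from further lists. Of 18 measured hydrolases and partners outside the choice, 0 passed over all genes, and 3 were higher and 0 lower in FAD than in wild type at an unadjusted p under 0.05, where 4.41% and 4.02% of all genes were. The 3 were Dpp7, a dipeptidase (0.25), Gusb, the beta-glucuronidase (0.27), and Aga, which splits sugars from asparagine (0.23). Idua, the iduronidase of glycosaminoglycan breakdown, was the 1 lower in FAD DKO than in FAD (-0.25, limma adjusted p = 0.504). Of all genes 4.41% were lower there, so 1 of 18 is no result about the list. Among 29 further membrane proteins and pump partners 0 passed. Gpnmb, a glycoprotein of lysosomes and melanosomes that is also on the list of plaque-associated markers, read 4.91, 5.23 and 5.53 on the wild type arrays, 6.39, 7.71 and 5.98 on those of FAD, and 7.41, 7.49 and 7.54 on those of FAD DKO. Every FAD and FAD DKO array lay above every wild type array, with differences of 1.47 in FAD (SE 0.373, limma adjusted p = 0.358) and 2.25 in FAD DKO (limma adjusted p = 0.0697), the largest of this list. Cd164, a sialomucin of endosomes and lysosomes, read 11.34, 11.45 and 11.46 on the wild type arrays, 10.95, 10.95 and 11.08 on those of FAD, and 11.06, 10.97 and 10.99 on those of FAD DKO. No array of either disease group reached a wild type array, with differences of -0.42 in FAD (SE 0.0702, limma adjusted p = 0.133) and -0.41 in FAD DKO (limma adjusted p = 0.0764). Tcirg1, another pump subunit without the Atp6v prefix, read 9.37, 9.17 and 9.15 on the wild type arrays, 8.78, 9.05 and 9.06 on those of FAD, and 9.22, 9.27 and 9.15 on those of FAD DKO, with -0.26 between FAD and wild type and 0.25 between FAD DKO and FAD.

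In the 16 genes that sort lysosomal enzymes 0 passed. Gnptab, which starts the mannose 6-phosphate tag, gave 0.31 between FAD and wild type and -0.29 between FAD DKO and FAD, and the sorting receptor Sort1 gave -0.20 between FAD DKO and wild type. In the 22 genes of the TFEB family and lysosomal nutrient sensing 0 passed as well. Mitf, a relative of TFEB, gave 0.30 between FAD and wild type, Fnip2, a partner of folliculin, 0.24, and the Rag GTPase Rraga -0.28 between FAD DKO and FAD. Among the cathepsins and sulfatases left out of the choice, Ctse and Arsb held larger differences than any member. The median differences of these lists between FAD and wild type were 0.03 and 0.02, beside 0.06 over the members. Arsb, arylsulfatase B, rose by 1.44 in FAD (SE 0.0745, limma adjusted p = 0.000234) and by 1.43 in FAD DKO against wild type (limma adjusted p = 0.000299), as 1 of 7 measured sulfatases and partners. Of 14 cathepsins, Ctse rose by 4.04 in FAD DKO against wild type (SE 0.49, limma adjusted p = 0.0261) and was the only 1 to pass in any comparison. It also rose by 3.43 in FAD against wild type (limma adjusted p = 0.0647), and differed by 0.61 between FAD DKO and FAD (limma adjusted p = 0.748). Without any single array of FAD DKO or wild type, Ctse no longer passed between these groups (adjusted p from 0.0688 to 0.133 in limma, 3.83 to 4.35 on the log2 scale), while Arsb passed in 6 of 6 such fits of both its comparisons.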

How the data were processed

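RNA of sorted microglia was hybridised to 9 one-colour arrays, 3 for each genotype. The authors deposited log2 values for each probe set, computed with RMA per the submitters' processing notes. RMA corrects background, quantile-normalizes and summarises probes, so small differences between arrays may have been reduced. For its version and level of summary, not given in the sources used here, nothing is assumed, and signal over background was not analysed.

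Of 41345 probe sets, 23521 had 1 gene symbol, 1814 had several and 16010 are unnamed here. The brightest probe set stood for each of 1082 genes with several, which left 22180 genes. RefSeq (GRCm38.p6) matched 23328 of the 23521 probe sets by gene identifier and updated 0 symbols.

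All genes were fitted by lmFit and eBayes of limma 3.58.1 (R 4.3.3) over the 9 arrays with a mean per group, giving 8.98 degrees of freedom after moderation. Tests are two-sided, with Benjamini-Hochberg adjustment across the 22180 genes and calls at an adjusted p under 0.05. The median SE of a difference was 0.104 over all genes and 0.0833 over the members. The fit was tested on simulated normal data with planted changes. These were larger than the differences of most members, so the test does not cover differences of that size. The members and all gene lists were chosen with earlier results of these data known. Named are members with an unadjusted p under 0.05 in a comparison, the extremes of each class and 6 fixed genes (Lamp1, Lamp2, Cd63, Cd68, Tfeb, Npc2), and up to 3 members per further list with the smallest p, of which the text gives a part. Alternatives were a low-signal filter, quantile normalization, a trended and robust variance, 2 groups only, the mean of probe sets, array weights, a replicate block, and omission of single arrays. Python 3.11.15 with matplotlib 3.10.9 drew the figures.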

Additional observations from a re-analysis of the deposited data

How the results depend on the processing

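For single genes, 682 of 693 values counted as the same. These kept their side of the threshold, and kept their direction or crossed 0 by a shift smaller than their SE in the fit reported. Another 8 newly passed, all of them Cln8 or Fuca1. A further 3 changed direction by at least that SE without passing, and 0 counted as reversed, a label kept for genes that had passed. Members called between FAD DKO and wild type were 1 with array weights, 1 with quantile normalization, 2 with the low-signal filter and 2 with a trended and robust variance, and between FAD DKO and FAD 1 with the filter and 1 with the trended variance, against 0 in the fit reported. Members at an unadjusted p under 0.05 between FAD and wild type were 7 with 2 groups only, against 11, and 7 to 9 without single arrays. Between FAD DKO and FAD they were 10 with the trended variance, against 6, and 3 to 6 without single arrays. Between FAD DKO and wild type they were 11 with quantile normalization and 13 with the trended variance, against 7, and 4 to 11 without single arrays. Over all genes, the calls between FAD and wild type (9) were 5 with 2 groups only, 22 with array weights, 33 with the filter, 14 with quantile normalization and 43 with the trended variance. Those between FAD DKO and FAD (5) were 0 with 2 groups only, 11 with the filter, 3 with quantile normalization, 12 with the trended variance and 0 to 5 without single arrays, with 0 without FAD replicate 2 or FAD DKO replicate 3. Those between FAD DKO and wild type (31) were 13 with 2 groups only, 82 with array weights, 117 with the filter, 124 with the trended variance and 2 to 14 without single arrays, with 2 without wild type replicate 2 or FAD DKO replicate 3. The filter tests fewer genes, and the other causes were not tested. Quantile normalization moved the median of all genes by 0.00461, -0.00564 and -0.00376 (log2).

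Arrays of the same replicate number showed little common deviation (correlations from -0.11 to 0.122). With 3 arrays a group this does not settle whether the numbers pair them, and the labels do not say. With the replicate number as a block, 8, 2 and 11 genes were called in the order FAD against wild type, FAD DKO against FAD and FAD DKO against wild type, and 0 members in each. With 3 arrays a group, and a member's median SE of 0.0833, differences of the size seen for most members are not resolved. Dim isoforms of the pump, below the median of all probe sets, are the least certain.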
